A study of Mus musculus with 19 samples.

Results

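The circadian clock of mouse cells is a transcriptional loop. CLOCK and ARNTL (also called BMAL1) bind E-boxes and switch on the period genes Per1, Per2 and Per3 and the cryptochrome Cry1, whose proteins then repress CLOCK and ARNTL. The same pair switches on Nr1d1 and Nr1d2, which encode the REV-ERB repressors of Arntl, and Dbp, which with Tef belongs to the PAR bZIP factors that act through D-boxes. In tissues sampled around the clock, transcripts of Dbp and the REV-ERB genes peak in the same part of the day and Arntl in the opposite part. The hippocampus holds such a clock, and Per1 there is also induced by neuronal activity and by glucocorticoids.

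The 10 clock genes described here are Per1, Per2, Per3, Cry1, Nr1d1, Nr1d2, Dbp, Tef, Arntl and Clock. They were found through array probes whose accession belongs to a RefSeq transcript of one of them, which gave 21 probes of 56605 and 10 genes of 25599 tested. All 10 were measured, 20 of the 21 probes passed the filter on dim probes, and the brightest probe of each gene was well above background on 19 of 19 arrays. None of these 10 probes was saturated or missing on any array.

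The samples are hippocampal RNA of 19 mice, each on 1 Agilent array, in 3 groups. APP/PS1 mice carry human amyloid precursor protein and presenilin transgenes and deposit amyloid, and all 13 came from 1 transgenic strain, in which a mouse prion protein vector drives the transgenes. The APP/PS1 UA group (n = 6) received urolithin A, a compound that gut bacteria make from ellagitannins, by gavage at 200 mg/kg/day in DMSO from 6 months of age and was studied at 8 months. The APP/PS1 vehicle group (n = 7) received DMSO alone over the same months, as did the WT vehicle group (n = 6), the wild-type littermates. The light cycle and the hour of dissection, on which clock transcripts depend, are not given in the sources used here.

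A level below is the log2 of the green processed signal minus the array's 75th percentile, so 0 is that percentile and 1 unit is a doubling. A gene was called when limma's p-value, adjusted by the Benjamini-Hochberg method over all genes tested, was under 0.05. The levels of different genes rest on different probes and are not set against each other. The labels number the samples as replicates, and their number limits the precision of every value.

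Both the dissections and the slides varied between arrays. Of 6 markers of hippocampal neurons, 6 were well above background on all arrays. Of 8 choroid plexus markers, 5 were, and their mean level ran from -1.79 to 3.87 in APP/PS1 UA, from -3.33 to 4.45 in APP/PS1 vehicle and from -1.31 to 3.89 in WT vehicle arrays, with a gap between 0.13 and 2.71 that split the arrays. Above the gap lay 4 of 6 APP/PS1 UA, 5 of 7 APP/PS1 vehicle and 1 of 6 WT vehicle arrays, so choroid plexus content was not balanced between genotypes. All 8 choroid plexus markers had a higher mean in each APP/PS1 group than in WT vehicle mice, and none was called. In APP/PS1 vehicle against WT vehicle, 4 of 6 microglial markers were called, all with a positive difference (median of the 6, 0.56), as was 1 of 4 astrocyte markers, Aqp4 (0.47, limma adjusted p = 0.00769). The mean level of the 6 microglial markers ran from 2.48 to 2.87 in APP/PS1 UA, from 2.82 to 3.02 in APP/PS1 vehicle and from 2.22 to 2.48 in WT vehicle arrays, and all 6 were well above background on every array. The part of microglia and astrocytes in the differences between groups was not tested. The arrays lay on 3 slides. Slide 1 held 2 APP/PS1 vehicle and 6 WT vehicle arrays, slide 2 held 3 APP/PS1 UA and 5 APP/PS1 vehicle arrays, and slide 3 held 3 APP/PS1 UA arrays. By Xist and Y-linked transcripts, 1 of 6 APP/PS1 UA, 3 of 7 APP/PS1 vehicle and 1 of 6 WT vehicle arrays were female.

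Because several clock genes moved together between arrays, the letters before their transcription starts are shown first. The RefSeq promoter table of build GRCm38.p6 held 14 windows for 9 of the 10 genes, from 250 bases before to 50 bases after an annotated start, and Per2 had none. On both strands the windows were searched for the E-box CACGTG, the E'-box CACGTT, the D-box TTATGTAA or TTACGTAA, the ROR element TAGGTCA or TGGGTCA, which REV-ERB and ROR proteins bind, and the cyclic AMP element TGACGTCA. No letter of one match is shared with another in these windows. In the lines below the capitals mark the matches, and each sequence runs 5′ to 3′ on the strand of the gene.
Cry1 (chr10:85185055-85185304, minus strand): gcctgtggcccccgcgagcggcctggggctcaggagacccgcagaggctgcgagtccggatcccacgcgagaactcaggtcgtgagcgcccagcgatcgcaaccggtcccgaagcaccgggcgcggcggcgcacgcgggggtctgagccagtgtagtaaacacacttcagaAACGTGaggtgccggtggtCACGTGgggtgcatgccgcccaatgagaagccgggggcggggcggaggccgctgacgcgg
Per1 (chr11:69098699-69098948, plus strand): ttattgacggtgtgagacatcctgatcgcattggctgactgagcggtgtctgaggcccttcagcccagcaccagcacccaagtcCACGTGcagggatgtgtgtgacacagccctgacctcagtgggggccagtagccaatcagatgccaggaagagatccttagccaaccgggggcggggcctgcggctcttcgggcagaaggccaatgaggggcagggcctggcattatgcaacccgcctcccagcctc
Nr1d1 (chr11:98775378-98775627, minus strand): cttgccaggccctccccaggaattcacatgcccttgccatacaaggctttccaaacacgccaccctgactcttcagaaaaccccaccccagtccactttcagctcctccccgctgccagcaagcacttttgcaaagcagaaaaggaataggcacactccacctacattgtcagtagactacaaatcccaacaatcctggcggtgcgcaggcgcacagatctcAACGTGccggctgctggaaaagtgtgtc
Per3 (chr4:151044666-151044915, minus strand): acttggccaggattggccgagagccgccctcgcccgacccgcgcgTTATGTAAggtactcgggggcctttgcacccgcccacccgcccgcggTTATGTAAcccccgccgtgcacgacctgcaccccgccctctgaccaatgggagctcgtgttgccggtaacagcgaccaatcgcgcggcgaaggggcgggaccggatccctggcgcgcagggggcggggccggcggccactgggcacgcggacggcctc
Arntl (chr7:113207529-113207558, plus strand): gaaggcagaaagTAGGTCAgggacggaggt

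The first 4 lines give the 250 bases before the start, and the Arntl line gives 30 bases after it. The Cry1 window held an E-box 60 bases before the start and an E'-box 79 bases before it. The Per1 window held an E-box 166 bases before the start, and the Nr1d1 window an E'-box 28 bases before it. Per3 was the one member with a window that matched the D-box letters searched, at 205 and 158 bases before its start. The ROR element of Arntl began 30 bases after the start, and REV-ERB repression of Arntl is known to act through such elements.

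Tef windows, not printed, held E-boxes 127 and 138 bases before 2 annotated starts. The Dbp, Nr1d2 and Clock windows held none of the letters searched, and no window of a member matched those of the cyclic AMP element. Among all 32851 windows of the table, 7.15% held the E-box, 4.68% the E'-box, 1.06% the D-box, 6.45% the ROR element and 1.79% the cyclic AMP element. A match is a run of letters and not a measured binding site, and the E-boxes known to drive Dbp lie within the gene, outside such a window.

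None of the 10 clock genes was called in any of the 3 comparisons between groups, and for none of them were 2 groups free of overlap. How many of all genes had groups free of overlap was not counted, so overlap has no background here. In APP/PS1 UA against APP/PS1 vehicle 0% of all genes were called, in APP/PS1 UA against WT vehicle 0.0938%, and in APP/PS1 vehicle against WT vehicle 5.03%. An unadjusted p under 0.05 was reached by 0 of the 10 clock genes and 15.4% of all genes in APP/PS1 UA against APP/PS1 vehicle. It was reached by 3 of 10 (Per1, Per2 and Tef) and 8.81% of all genes in APP/PS1 UA against WT vehicle, and by 3 of 10 (Nr1d2, Tef and Clock) and 24% of all genes in APP/PS1 vehicle against WT vehicle. With the choroid plexus level as a covariate, or the slide as a block, again no clock gene was called. The 3 comparisons share groups, so their differences are not independent of each other. Less RNA of a gene per cell and fewer cells that express it cannot be told apart in bulk tissue.

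**Figure D1:**
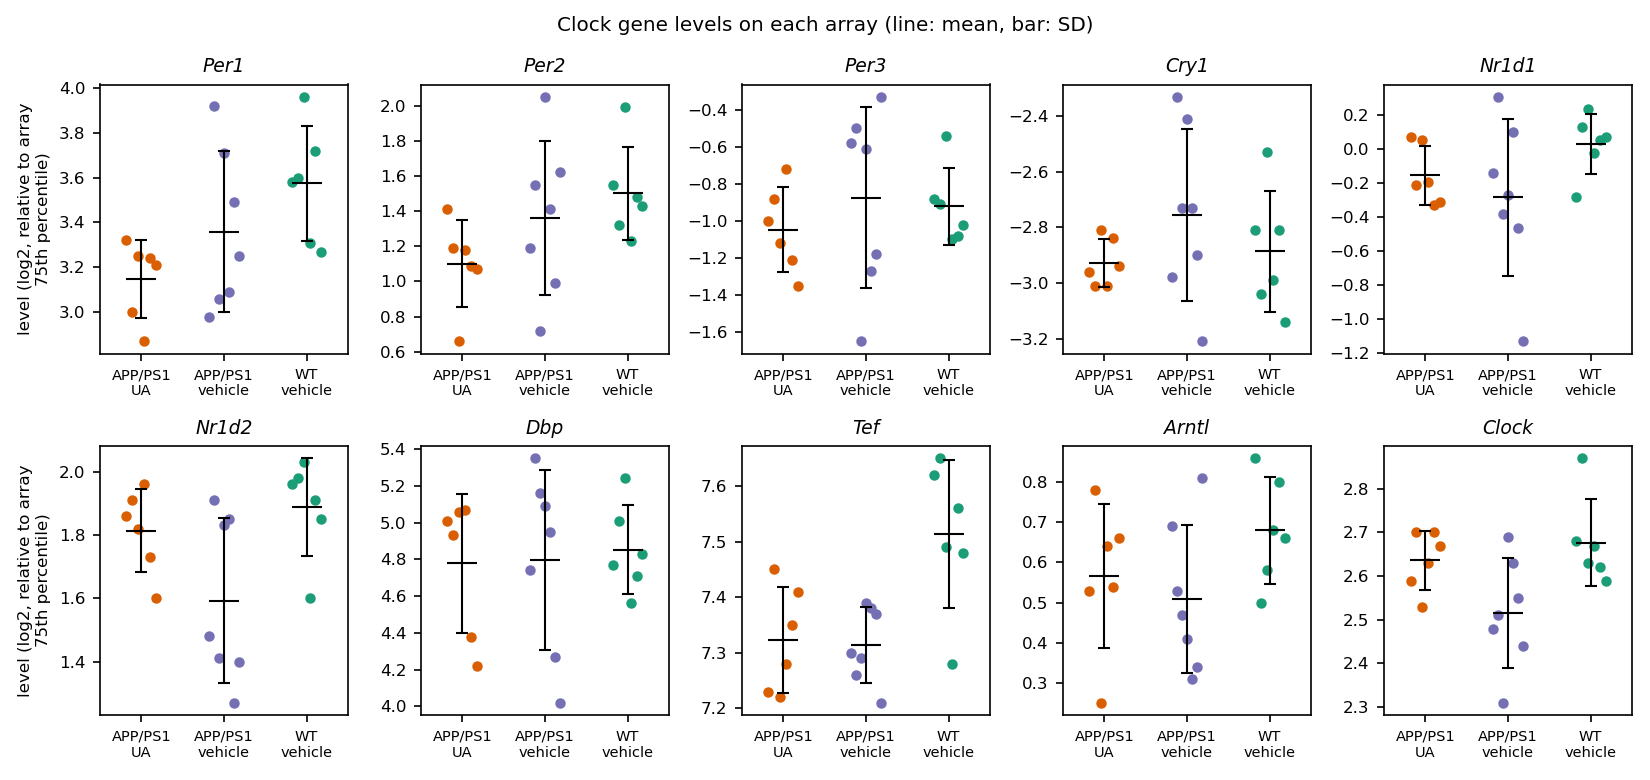
Level of each clock gene on each of the 19 arrays (log2 of green signal relative to the array's 75th percentile, vertical axis, scaled separately for each gene), by group: APP/PS1 UA, APP/PS1 vehicle and WT vehicle from left to right. Points are arrays, the line is the group mean and the bar is 1 SD; the groups overlap for every gene, and the lowest Nr1d1 level, -1.13, is that of 1 APP/PS1 vehicle array.

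The period genes encode repressors of the loop, and the mean level of each at its brightest probe was lowest in the APP/PS1 UA group. Per1 level ran from 2.87 through a median of 3.22 to 3.32 in APP/PS1 UA arrays, from 2.98 through 3.25 to 3.92 in APP/PS1 vehicle arrays and from 3.27 through 3.59 to 3.96 in WT vehicle arrays. The highest UA array reached just above the lowest WT array, so the groups overlapped by a narrow margin. Group means were 3.15 ± 0.17 (SD, n = 6) in APP/PS1 UA, 3.36 ± 0.36 (SD, n = 7) in APP/PS1 vehicle and 3.57 ± 0.26 (SD, n = 6) in WT vehicle mice. The difference of UA from WT, -0.43 (SE 0.157), had a limma adjusted p of 0.465, and with the slide as a fixed block it was -0.25.

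Per2 averaged 1.10 ± 0.25 (SD, n = 6) in APP/PS1 UA, 1.36 ± 0.44 (SD, n = 7) in APP/PS1 vehicle and 1.5 ± 0.26 (SD, n = 6) in WT vehicle mice. Its arrays ran from 0.66 to 1.41 in APP/PS1 UA, from 0.72 to 2.05 in APP/PS1 vehicle and from 1.23 to 1.99 in WT vehicle mice. The UA and WT means differed by -0.40 (95% interval -0.79 to -0.0077, limma adjusted p = 0.56), and single arrays of both lay between 1.23 and 1.41. Per3 stood at -1.05 ± 0.23 (SD, n = 6) in APP/PS1 UA, -0.87 ± 0.49 (SD, n = 7) in APP/PS1 vehicle and -0.92 ± 0.21 (SD, n = 6) in WT vehicle mice. The widest range of Per3, from -1.65 to -0.33, was that of the APP/PS1 vehicle group, and the other groups lay inside it. The second probes of Per2 and Per3, well above background on 8 and 16 arrays, were lowest in WT vehicle mice. They gave 0.12 and 0.18 for UA against WT, opposite in sign to the brightest probes, and neither was called.

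Cry1, the cryptochrome partner of the period proteins, averaged -2.93 ± 0.086 (SD, n = 6) in APP/PS1 UA, -2.76 ± 0.31 (SD, n = 7) in APP/PS1 vehicle and -2.88 ± 0.22 (SD, n = 6) in WT vehicle mice. Its UA arrays spanned -3.01 to -2.81, a narrower range than the -3.21 to -2.33 of APP/PS1 vehicle arrays and the -3.14 to -2.53 of WT vehicle arrays. No pair of Cry1 means at this brightest probe differed by more than 0.17 on the log2 scale. The second Cry1 probe, well above background on 16 arrays, gave -0.62 for UA against WT and -0.38 for APP/PS1 vehicle against WT. Neither was called, and for APP/PS1 vehicle against WT the brightest probe had the opposite sign (0.13).

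The REV-ERB genes had their lowest means in APP/PS1 vehicle mice. Nr1d2 level ran from 1.60 through a median of 1.84 to 1.96 in APP/PS1 UA arrays, from 1.27 through 1.48 to 1.91 in APP/PS1 vehicle arrays and from 1.60 through 1.94 to 2.03 in WT vehicle arrays. Of the 7 vehicle arrays of the transgenic strain, 4 lay below every WT and every UA array and the others lay among them. The Nr1d2 difference of APP/PS1 vehicle from WT vehicle was -0.30 (SE 0.110, limma adjusted p = 0.112), and that of UA from APP/PS1 vehicle was 0.22 (SE 0.110, adjusted p = 0.339). The second Nr1d2 probe gave -0.17 and 0.073 for the same differences.

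Nr1d1 averaged -0.15 ± 0.18 (SD, n = 6) in APP/PS1 UA, -0.28 ± 0.46 (SD, n = 7) in APP/PS1 vehicle and 0.034 ± 0.18 (SD, n = 6) in WT vehicle mice. Its arrays ran from -0.33 through a median of -0.20 to 0.071 in APP/PS1 UA, from -1.13 through -0.27 to 0.31 in APP/PS1 vehicle and from -0.28 through 0.064 to 0.24 in WT vehicle mice. A single APP/PS1 vehicle array was the lowest, and the rest of the 3 groups overlapped. The difference of APP/PS1 vehicle from WT vehicle, -0.31 (SE 0.168, limma adjusted p = 0.258), was -0.17 without APP/PS1 vehicle replicate 7 and 0.051 with the slide as a fixed block.

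Dbp, an output gene of the loop and a direct CLOCK and ARNTL target, had nearly the same mean in all groups, 4.78 ± 0.38 (SD, n = 6) in APP/PS1 UA, 4.80 ± 0.49 (SD, n = 7) in APP/PS1 vehicle and 4.85 ± 0.24 (SD, n = 6) in WT vehicle mice. Single arrays ran from 4.22 through a median of 4.97 to 5.07 in APP/PS1 UA, from 4.02 through 4.95 to 5.35 in APP/PS1 vehicle and from 4.56 through 4.80 to 5.24 in WT vehicle mice. In each transgenic group 2 arrays lay at 4.38 or below, apart from the other arrays of that group, and all WT arrays lay above them. The intervals of the Dbp differences, -0.45 to 0.41 for UA against APP/PS1 vehicle and -0.49 to 0.38 for APP/PS1 vehicle against WT vehicle, left room for shifts of that size in either direction.

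Tef, the other PAR bZIP gene, came closest to a call between genotypes. Tef level ran from 7.22 through 7.32 to 7.45 in APP/PS1 UA arrays, from 7.21 through 7.30 to 7.39 in APP/PS1 vehicle arrays and from 7.28 through 7.52 to 7.65 in WT vehicle arrays. Of the WT arrays only replicate 4, at 7.28, lay among the APP/PS1 vehicle arrays. The APP/PS1 vehicle minus WT vehicle difference was -0.20 (SE 0.066, limma adjusted p = 0.0836), and without WT replicate 4 it was -0.24 with an adjusted p of 0.0438. The other 2 Tef probes gave 0.018 and -0.11, so the probes of this gene disagreed.

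Arntl and Clock encode the 2 activators of the loop. Arntl averaged 0.57 ± 0.18 (SD, n = 6) in APP/PS1 UA, 0.51 ± 0.18 (SD, n = 7) in APP/PS1 vehicle and 0.68 ± 0.14 (SD, n = 6) in WT vehicle mice. Clock averaged 2.64 ± 0.066 (SD, n = 6) in APP/PS1 UA, 2.51 ± 0.12 (SD, n = 7) in APP/PS1 vehicle and 2.68 ± 0.10 (SD, n = 6) in WT vehicle mice, with all 3 ranges overlapping. The APP/PS1 vehicle minus WT vehicle difference was -0.17 (SE 0.097, limma adjusted p = 0.28) for Arntl and -0.16 (SE 0.066, adjusted p = 0.147) for Clock. The other 2 Arntl probes gave 0.014 and 0.29 for this difference, opposite in sign to the brightest probe. Their limma p-values, adjusted over all kept probes, were 0.956 and 0.0806. They followed the brightest probe with r of 0.46 and 0.007, so the probes of Arntl also disagreed.

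As a list, 5 of the 10 genes lay above 0 in APP/PS1 UA against APP/PS1 vehicle, 0 of 10 in APP/PS1 UA against WT vehicle and 2 of 10 in APP/PS1 vehicle against WT vehicle. The median difference of the list was -0.0047 in APP/PS1 UA against APP/PS1 vehicle, where that of all genes tested was -0.0073. It was -0.12 in APP/PS1 UA against WT vehicle, where all genes had -0.02, and -0.17 in APP/PS1 vehicle against WT vehicle, where all genes had 0.0025. With the slide as a fixed block, Per3, Cry1, Nr1d1, Nr1d2 and Dbp changed sign in APP/PS1 UA against WT vehicle, a comparison in which no slide held both groups.

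**Figure D2:**
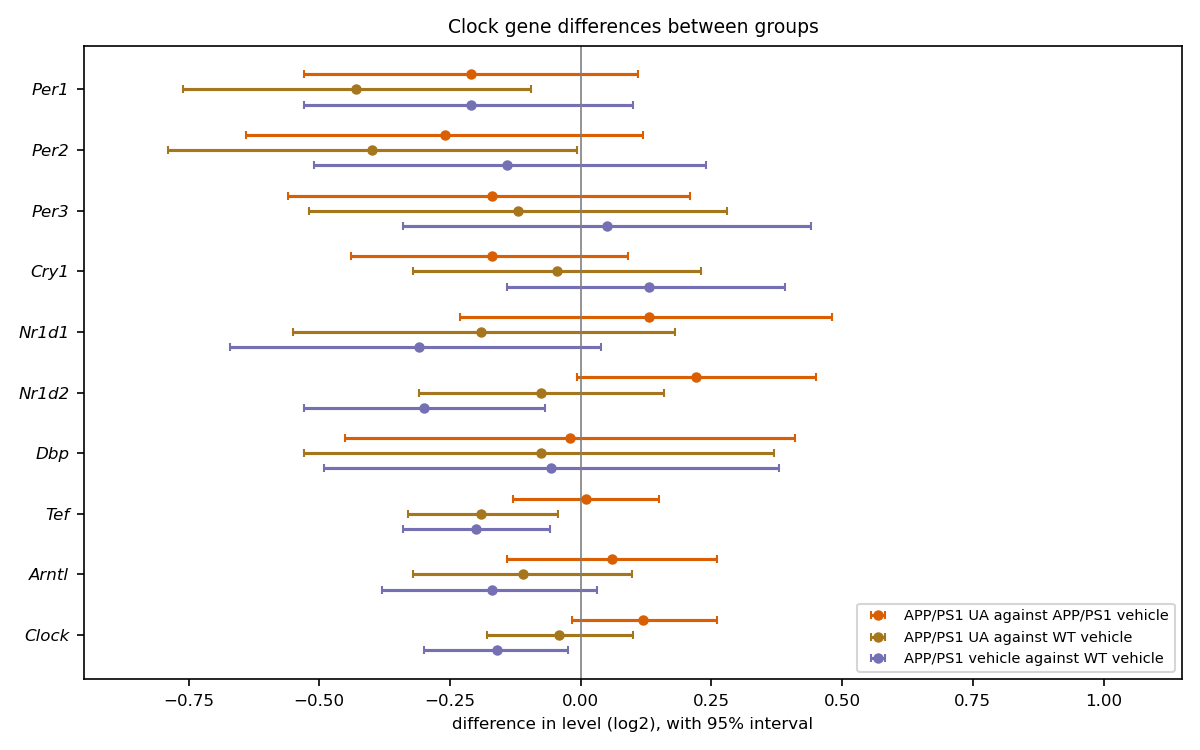
Difference in level (log2, horizontal axis) of each clock gene for APP/PS1 UA against APP/PS1 vehicle, APP/PS1 UA against WT vehicle and APP/PS1 vehicle against WT vehicle, from top to bottom within a gene. Points are limma estimates and bars 95% intervals; some intervals, such as that of Nr1d2 from -0.53 to -0.068 in APP/PS1 vehicle against WT vehicle, leave out 0, but no adjusted p was under 0.05.

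The clock genes differed in how far single mice stood apart within a group. The SD within groups was 0.39 for Dbp, higher than that of 95.2% of the 1948 genes of like level, and the Dbp signal spanned a 2.51-fold range over the 19 arrays. Per2, at 0.34, and Per1, at 0.28, also exceeded 88.1% and 86.6% of genes of like level. Tef and Clock varied least, with an SD of 0.10 each, below which lay 2.7% and 10.5% of genes of like level. The median SD within groups over all genes was 0.24. In the red channel, for which the labels describe no sample, the SD of Dbp was 0.065. Over the 10 genes the red SD ran from 0.054 for Per1 to 0.17 for Nr1d1, where the green SD was 0.31. It came closer to the green SD for Cry1 (0.15 against 0.23), Clock (0.081 against 0.10) and Tef (0.065 against 0.10).

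This spread was shared between certain members. After each array's level was set against its group mean, 36 of the 45 pairs of clock genes had a Pearson r above 0. In 11 pairs the permutation p (100000 permutations of arrays within groups, 2-sided) was under 0.05, 10 of them positive and 1 negative. The p-values of pairs are unadjusted, and beside them stand adjusted p-values from limma fits of every gene on the level of 1 clock gene. An unadjusted p under 0.05 in these fits was far from equally common among all genes. On Nr1d1, Nr1d2 and Cry1 it was reached by 4 of the 9 other clock genes each, against 7.34%, 8.27% and 5.7% of all genes. The counts were 3 on Per2 (all genes 26.7%), 3 on Dbp (7.92%) and 2 on Per1 (4.38%). They were 1 each on Per3 (39.5%), Arntl (13.7%), Clock (9.06%) and Tef (1.73%).

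Dbp correlated with both REV-ERB genes. Nr1d1 and Dbp correlated with r = 0.75 (rho 0.67, permutation p = 0.00077), and Nr1d2 and Dbp with r = 0.75 (rho 0.72, permutation p = 0.00122). The r of Nr1d1 and Dbp was 0.75 in APP/PS1 UA, 0.81 in APP/PS1 vehicle and 0.64 in WT vehicle arrays, and 0.78 on slide 1 and 0.75 on slide 2. The r of Nr1d2 and Dbp was 0.90 in APP/PS1 UA, 0.71 in APP/PS1 vehicle and 0.79 in WT vehicle arrays, and 0.88 on slide 1 and 0.60 on slide 2. Leaving out any 1 array kept the permutation p of both pairs under 0.05. The low end was set by APP/PS1 vehicle replicate 7, with the lowest Dbp (4.02) and Nr1d1 (-1.13) of all arrays, and the high end by APP/PS1 vehicle replicate 2, with the highest of both (5.35 and 0.31).

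Without the 2 arrays farthest from the median in the first gene, r was 0.56 for Nr1d1 and Dbp and 0.65 for Nr1d2 and Dbp. The second Dbp probe, which followed the first with r = 0.94, gave 0.85 with Nr1d1 and 0.72 with Nr1d2. The second Nr1d2 probe, which followed the first with r = 0.88, gave 0.79 with Dbp. Nr1d1 and Nr1d2 themselves correlated at 0.60 (permutation p = 0.0279). That value was 0.48 (permutation p = 0.114) without APP/PS1 vehicle replicate 2, 0.55 (permutation p = 0.0728) without APP/PS1 vehicle replicate 5 and 0.49 (permutation p = 0.0799) without the 2 farthest arrays. It was 0.56 (permutation p = 0.0798) with the slide removed as well as the group, and 0.33 (permutation p = 0.283) with normexp background correction. Within single groups the r of Nr1d1 and Nr1d2 was 0.42 in APP/PS1 UA, 0.71 in APP/PS1 vehicle and 0.23 in WT vehicle arrays.

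In the fit of all genes on the Dbp level, 0.0899% of genes were called and no clock gene was. The slope was 0.61 for Nr1d1 (SE 0.136, limma adjusted p = 0.134) and 0.38 for Nr1d2 (SE 0.093, limma adjusted p = 0.174), in log2 units per log2 unit of Dbp. With the choroid plexus level as a covariate, an alternative chosen after seeing the data, the Nr1d2 slope was 0.43 with an adjusted p of 0.0377. At an unadjusted p under 0.05, 3 of the 9 other clock genes followed Dbp, against 7.92% of all genes.

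**Figure D3:**
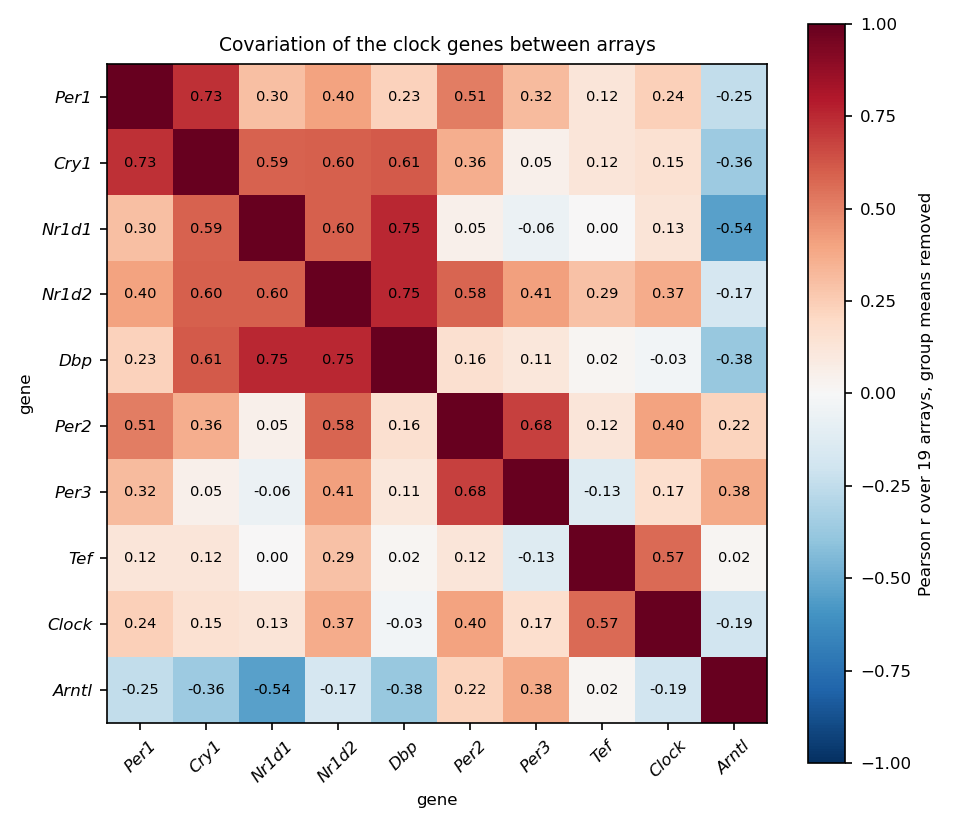
Pearson r between each pair of the 10 clock genes over 19 arrays, with group means removed (colour scale from -1 to 1, values printed in the cells). Dbp, Nr1d1, Nr1d2 and Cry1 form a positive block with r from 0.59 to 0.75, and Arntl is negative with each of them, from -0.17 with Nr1d2 to -0.54 with Nr1d1. Without the 2 arrays farthest in Cry1, its r in that block was 0.35 with Dbp, 0.44 with Nr1d2 and 0.098 with Nr1d1.

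Arntl ran against the REV-ERB gene Nr1d1. Their r was -0.54 (permutation p = 0.0304), the one negative pair past the threshold, and their rho was -0.48 (permutation p = 0.0588). Within slides r was -0.79 on slide 1 and -0.78 on slide 2. It was -0.62 in APP/PS1 UA, -0.52 in APP/PS1 vehicle and -0.79 in WT vehicle arrays. APP/PS1 vehicle replicate 7, the array with the lowest Nr1d1, had the second highest Arntl, 0.81, and without it r was -0.31 (permutation p = 0.228). It was -0.53 (permutation p = 0.0725) without APP/PS1 UA replicate 3 and -0.48 (permutation p = 0.0592) without the 2 arrays farthest in Nr1d1. With the choroid plexus mean removed it was -0.48 (permutation p = 0.0578), and with arrays not centred on group means -0.27 (permutation p = 0.265). The other Arntl probes gave -0.36 and -0.33. The slope of Nr1d1 on Arntl was -0.99 (SE 0.392, limma adjusted p = 0.301), in a fit in which 0% of all genes were called and 13.7% had an unadjusted p under 0.05.

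Cry1, whose own expression is held down by REV-ERB proteins, correlated with Per1 at 0.73 (permutation p = 0.00392), with Dbp at 0.61 (permutation p = 0.0139), with Nr1d2 at 0.60 (permutation p = 0.0347) and with Nr1d1 at 0.59 (permutation p = 0.0418). Its second, dimmer probe did not follow the first (r = 0.15) and gave r = 0.0071 with Per1 and -0.20 with Dbp. In APP/PS1 UA arrays, where Cry1 varied little, its r with Dbp was -0.24. Without APP/PS1 vehicle replicate 7 the r of Cry1 with Nr1d1 was 0.35. Its rho was 0.54 with Dbp (permutation p = 0.0306), 0.50 with Nr1d2 (permutation p = 0.0585) and 0.29 with Nr1d1 (permutation p = 0.268). Without the 2 arrays farthest from the median of Cry1, r was 0.35 with Dbp, 0.44 with Nr1d2 and 0.098 with Nr1d1. With normexp these values were 0.41, 0.35 and 0.33, none of them with a permutation p under 0.05.

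Tef and Clock correlated at 0.57 (permutation p = 0.0131), with the smallest spread of all members, and in the authors' deposited values the same pair gave -0.17. The other Tef probes gave 0.24 and 0.16 with Clock, and the other Clock probe gave 0.23 with Tef, none of them with a permutation p under 0.05. Neither followed Dbp, at r = 0.023 for Tef and -0.027 for Clock.

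**Figure D4:**
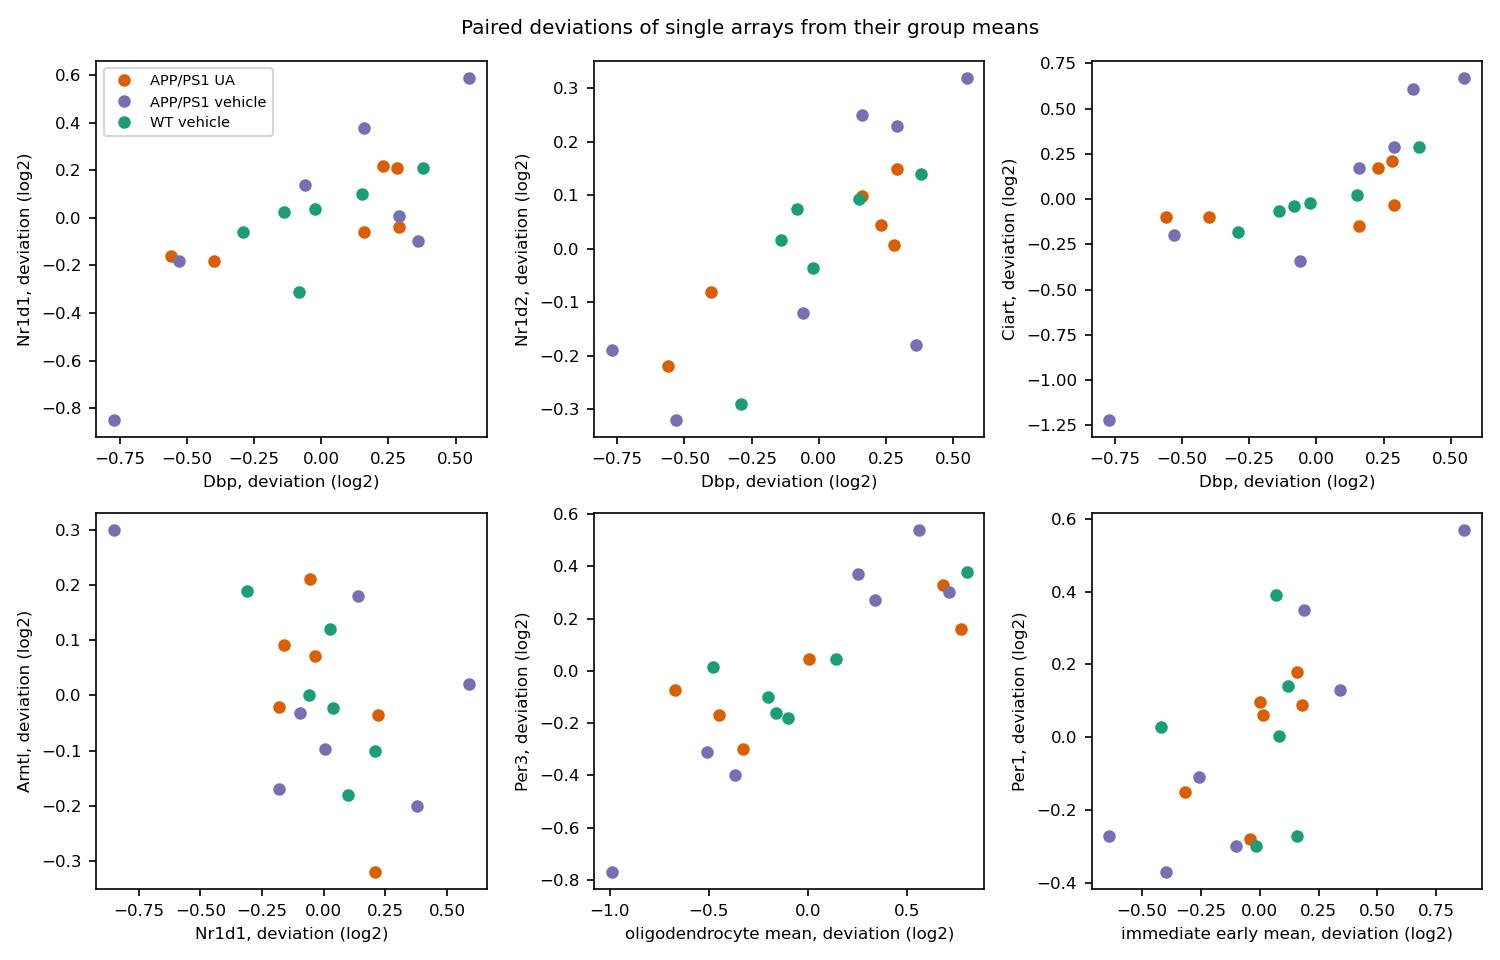
Deviation of each array from its group mean (log2) for 6 pairs: Nr1d1, Nr1d2 and Ciart against Dbp (top), Arntl against Nr1d1, Per3 against the mean of 3 oligodendrocyte markers and Per1 against the mean of 10 immediate early genes (bottom). Each point is 1 array, coloured by group; the points rise together in 5 panels and fall in the Arntl panel, and 1 APP/PS1 vehicle array marks the lower left end of the Nr1d1 and Ciart panels.

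Over all arrays Per2 had an r of 0.16 with Dbp (rho 0.28, permutation p = 0.601) and Per3 one of 0.11 (rho 0.31, permutation p = 0.727). The pooled value of Per3 depended on 2 arrays. The r of Per3 and Dbp was 0.80 in APP/PS1 UA, -0.23 in APP/PS1 vehicle and 0.90 in WT vehicle arrays, it was 0.77 on slide 1 and -0.54 on slide 2, and without the 2 arrays farthest from the median of Per3 it was 0.71. Those were APP/PS1 vehicle replicates 3 and 7, both on slide 2. Replicate 3 stood at -0.77 from its group mean in Per3 and 0.36 in Dbp, and replicate 7 at 0.54 in Per3 and -0.77 in Dbp. The r was 0.34 without replicate 3 and 0.44 without replicate 7. That of Per2 and Dbp was 0.79 on slide 1 and -0.048 on slide 2. The differences between groups and between slides were not tested. Per2 and Per3 correlated with each other at 0.68 (rho 0.68, permutation p = 0.00756), and each was called in the fit on the other, with limma adjusted p-values of 0.0428 and 0.0129. In those fits 4.86% of all genes had a called slope on Per2 and 25.6% on Per3. Both rose with the mean of 3 oligodendrocyte markers (Mbp, Mog and Mag), which ran from 1.97 to 3.42 in APP/PS1 UA, from 1.94 to 3.64 in APP/PS1 vehicle and from 2.21 to 3.48 in WT vehicle arrays. The r was 0.86 for Per3 (permutation p = 4e-05, limma adjusted p = 0.000211) and 0.68 for Per2 (permutation p = 0.00356, limma adjusted p = 0.014), and 22.8% of all genes had a called slope on that mean. Arntl came next, with an r of 0.58 (permutation p = 0.0191), and was not called (limma adjusted p = 0.0666). The neuron and thalamus markers went the same way, and other cell markers did not. With the mean of the 6 hippocampal neuron markers r was 0.67 for Per3 and 0.64 for Per2. With that of 4 thalamus markers it was 0.64 for Per3 and 0.35 for Per2. Those markers include Rora, which is also among the other clock genes below. For Per3 and Per2, r was -0.0065 and -0.027 with the microglial mean and -0.097 and -0.016 with the astrocyte mean. It was 0.22 and -0.13 with the vessel mean, -0.23 and 0.065 with the striatum mean and 0.19 and 0.015 with the blood mean.

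The r of Per3 with the oligodendrocyte markers was 0.83 in APP/PS1 UA, 0.96 in APP/PS1 vehicle and 0.81 in WT vehicle arrays. With the oligodendrocyte mean removed as well as the group, an alternative chosen after seeing the data, the r of Per2 and Per3 was 0.27 (permutation p = 0.341). Those of Nr1d1 and Nr1d2 with Dbp were then 0.77 and 0.76. The neuron and thalamus means were not removed in this way, and which cells lie behind these relations was not tested. Per3 was also called in the fit on the choroid plexus mean (limma adjusted p = 0.0257), where 22.5% of all genes were. As the arrays split on that mean, no correlation with it is given. With the choroid plexus mean removed, the r of Per2 and Per3 was 0.54, that of Nr1d1 and Dbp 0.73 and that of Nr1d2 and Dbp 0.79. The second probes of Per2 and Per3 followed the brightest ones with r of only 0.058 and 0.39.

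Per1 was set against 10 immediate early genes, which neuronal activity induces. With their mean its r was 0.69 (rho 0.71, permutation p = 0.00707), with 0.51 left after the 2 farthest arrays were removed. It was 0.66 in APP/PS1 UA, 0.89 in APP/PS1 vehicle and -0.012 in WT vehicle arrays. In the fit on that mean Per1 was not called (limma adjusted p = 1), and 0.0156% of all genes were. Among the single immediate early genes the r of Per1 was highest with Nr4a1 (0.83), Egr2 (0.80) and Arc (0.77) and lowest with Npas4 (-0.019), Dusp1 (0.19) and Ier2 (0.22). Among the 4 glucocorticoid targets it was 0.61 with Tsc22d3, 0.48 with Sgk1, which was missing on 1 array, 0.29 with Zbtb16 and 0.13 with Fkbp5. Tests were run on 30 relations of clock genes, those with the oligodendrocyte, choroid plexus and immediate early means, and 3 were called. Correlations of the 10 genes with the means of the other marker and gene lists were also computed, but not tested.

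Setting all named genes against Dbp shows where its partners stood. Among 14958 genes with a plain symbol, Nr1d1 ranked 55 and Nr1d2 60 from the highest r with Dbp, Cry1 ranked 298, and Arntl ranked 1499 from the lowest. Ciart, a CLOCK and ARNTL target that encodes the repressor CHRONO, ranked 19 at r = 0.81. Its slope on Dbp, 0.87 (SE 0.160, limma adjusted p = 0.0483), made it the 1 of 16 other clock genes tested that was called. Without APP/PS1 vehicle replicate 7, which had the lowest Ciart, -3.38, the slope was 0.59 with an adjusted p of 0.349, and 18 of the 19 fits that left out 1 array took the adjusted p above 0.05. Bhlhe41, Csnk1e and Bhlhe40 had slopes on Dbp of 0.57, 0.22 and 0.26 and were not called, with limma adjusted p-values of 0.33, 0.381 and 0.391.

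**Figure D5:**
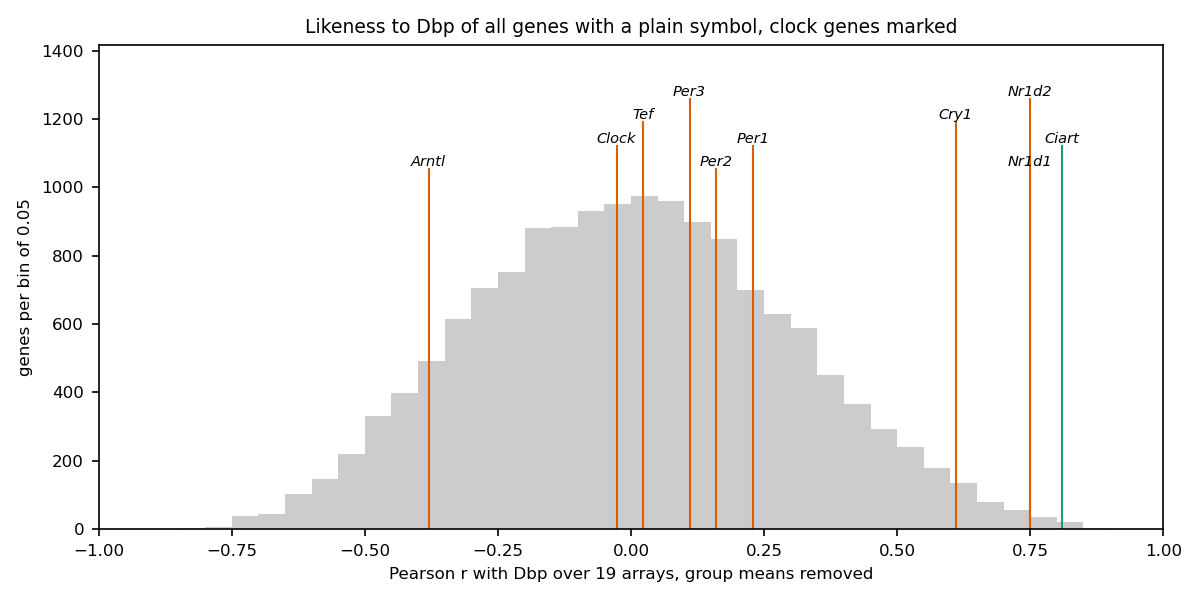
Number of genes (vertical axis) by Pearson r with Dbp over 19 arrays with group means removed (horizontal axis, bins of 0.05), for 14958 genes with a plain symbol. Lines mark the 9 other clock genes and Ciart; Nr1d1 and Nr1d2 at 0.75 and Ciart at 0.81 lie in the upper tail, Arntl at -0.38 on the lower side, and Tef and Clock near 0.

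The genes most like Dbp were not clock genes. The 10 of highest r were Mlip (0.92), Dkkl1 (0.89), Cited4 (0.87), Lamp5 (0.87), Myh2 (0.85), Cited1 (0.84), Cacnb4 (0.84), Cdsn (0.83), Rgs6 (0.83) and Wnt10a (0.83), and all 10 were called in the fit on Dbp, with adjusted p-values from 0.00379 to 0.0479. Dkkl1 had the steepest slope, 1.98 log2 units per unit of Dbp (SE 0.245, limma adjusted p = 0.00379). The 5 of lowest r were Tmlhe (-0.85), Sct (-0.85), Shisa2 (-0.81), Ifi47 (-0.79) and Rasl12 (-0.78), of which the first 3 were called. These 13 calls depended on the arrays used. Without APP/PS1 vehicle replicate 7, the array of lowest Dbp, 0 of the 13 remained, with a lowest adjusted p of 0.0965, and without any other 1 array 4 to 13 remained. With normexp 1 of the 13 remained, Cited4 (limma adjusted p = 0.0296), with the deposited values 3, with sex as a covariate 4 and with the replicate block 0. Likeness was Pearson r over 19 arrays, and it says that these genes were high on the same arrays.

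For Arntl the 10 genes of highest r were Fbxo4 (0.84), Bmi1 (0.83), Krt10 (0.82), Emg1 (0.80), Mis18a (0.80), Pogk (0.80), Ttc16 (0.80), Dach1 (0.79), Edem2 (0.79) and Rida (0.79). The 5 of lowest r were Selenoi (-0.83), Dyrk1a (-0.81), Ints1 (-0.81), Ap1ar (-0.80) and Cort (-0.80). None of the 15 was called, with limma adjusted p-values from 0.213 to 0.269. Without WT vehicle replicate 3, 13 of the 15 were called, with the lowest adjusted p, 0.00575, for Cort. With normexp 3 were called, Krt10, Selenoi and Ap1ar, each with a limma adjusted p of 0.0267.

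Among the 16 other clock genes tested, of 17 listed, 2 were called between genotypes and both were lower in APP/PS1 vehicle than in WT vehicle mice, where 5.03% of all genes were called. The microglial markers above were higher in the same comparison. Csnk1d, the casein kinase that phosphorylates period proteins, ran from 5.31 through 5.62 to 5.71 in APP/PS1 UA arrays, from 5.37 through 5.39 to 5.57 in APP/PS1 vehicle arrays and from 5.64 through 5.81 to 5.85 in WT vehicle arrays. No APP/PS1 vehicle array reached a WT vehicle array, while UA arrays overlapped both groups. Its APP/PS1 vehicle minus WT vehicle difference was -0.34 (SE 0.069, limma adjusted p = 0.0102). With the slide as a fixed block it was -0.40 with an adjusted p of 0.12, and in the mean of all kept probes it was -0.056.

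Btrc, which encodes a ubiquitin ligase subunit that binds phosphorylated period proteins, averaged 3.04 ± 0.087 (SD, n = 6) in APP/PS1 UA, 2.81 ± 0.21 (SD, n = 7) in APP/PS1 vehicle and 3.15 ± 0.10 (SD, n = 6) in WT vehicle mice. Its APP/PS1 vehicle arrays ran from 2.5 to 3.09 and its WT vehicle arrays from 3.06 to 3.33, so the groups overlapped at their edges. The difference was -0.34 (SE 0.087, limma adjusted p = 0.0343), and 7 of the 13 fits that left out an APP/PS1 vehicle or WT vehicle array took its adjusted p above 0.05. The list's median difference was 0.12 in APP/PS1 UA against APP/PS1 vehicle (all genes -0.0073), -0.13 in APP/PS1 UA against WT vehicle (all genes -0.02) and -0.23 in APP/PS1 vehicle against WT vehicle (all genes 0.0025).

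No other clock gene was called in APP/PS1 UA against APP/PS1 vehicle, where 0% of all genes were, or in APP/PS1 UA against WT vehicle, where 0.0938% were. Those of smallest p in APP/PS1 UA against APP/PS1 vehicle were Btrc (0.23), Arntl2 (-0.30), Csnk1d (0.14) and Bhlhe41 (-0.35), with limma adjusted p-values from 0.233 to 0.379. Against WT vehicle, the UA group had Csnk1d (-0.20), Bhlhe40 (-0.26), Cry2 (-0.13) and Ciart (-0.34) at the smallest p, with limma adjusted p-values from 0.446 to 0.679.

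The 3 clock output genes Wee1, Usp2 and Nampt, the 4 glucocorticoid genes and the 10 immediate early genes had no called member in any comparison, beside 0% of all genes in APP/PS1 UA against APP/PS1 vehicle, 0.0938% in APP/PS1 UA against WT vehicle and 5.03% in APP/PS1 vehicle against WT vehicle. Wee1, a cell cycle kinase gene with E-boxes, differed by -0.31 (SE 0.112, limma adjusted p = 0.107) in APP/PS1 vehicle against WT vehicle mice. Zbtb16, a glucocorticoid target, differed by 0.43 (SE 0.146, limma adjusted p = 0.2) in APP/PS1 UA against APP/PS1 vehicle. The immediate early genes lay below 0 in 10 of 10 cases in APP/PS1 UA against APP/PS1 vehicle, with a median of -0.65 (all genes -0.0073), and in 10 of 10 in APP/PS1 UA against WT vehicle, with a median of -0.81 (all genes -0.02). Fos, at -1.45 against WT vehicle, had the largest of these (SE 0.347, limma adjusted p = 0.147).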

How the data were processed

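Per the labels, the hippocampal RNA was labelled with Cy3. Per the file headers, the deposited scanner files came from Agilent Feature Extraction 12.0.3.1 with a 2-colour protocol, and the authors' processed green intensity was background-subtracted and dye-normalized within each array, not between arrays. The labels describe no red sample. The deposited value table is a score per spot, the log10 processed green signal centred and divided by its SD over the array (match within 0.00500, column medians -0.28 to -0.17), so its scale, centring and direction are known. Spot flags (coded 0 or 1) were deposited in the same files.

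Control spots and spots marked non-uniform or as population outliers were left out, and spots of a probe were averaged. The processed green signal was put on the log2 scale relative to the 75th percentile of its array, which ran from 450.413 to 1199.302 intensity units. A probe was kept if well above background on at least 6 arrays, and 51.363% to 59.447% of probes were so on each array. Accessions were matched without version to RefSeq genes (GRCm38.p6), naming 32994 probes by 22911 symbols, and the kept probe of highest mean stood for its gene.

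Groups were compared in 1 fit over 19 arrays with limma 3.58.1 (lmFit, eBayes; R 4.3.3, with data.table version 1.17.8), 2-sided, adjusted by Benjamini-Hochberg over 25599 genes. Slopes on a gene's level included group terms. Correlations used values centred on group means, with 100000 permutations of arrays within groups. The fits of group differences and of slopes were tested on simulated data, while the loading, permutations and motif search were not. The clock genes, the lists and the rule for named genes (all members; every called gene or otherwise the 4 of smallest p of each pathway list; the 10 genes most and 5 least like Dbp and Arntl) were chosen with earlier results of these data known. A member of the list of other clock genes and one of the oligodendrocyte list are not reported here and were left out of the list values.

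Alternatives were normexp with an offset of 50, other scalings, the deposited values, probe choice and filters, slide, sex, a replicate block and leaving out arrays. The mean signal column was absent, so normexp used median signals. Covariates for choroid plexus and oligodendrocyte levels were chosen after seeing the data. Same-numbered arrays of different groups had deviations correlated from -0.55 to 0.39, so the replicate numbers were not taken as pairs.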

Additional observations from a re-analysis of the deposited data

Results flagged for a closer look

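In 30 sets of 1 gene and 1 group, a single array stood far from the rest once: Clock in WT vehicle replicate 2 had a level of 2.87, and its gap to the next array was 0.665 of the group's range, where 0.625 is the limit for 6 arrays. Chance flags about 1 in 20 such sets.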

How the results depend on the processing

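No clock gene was called between groups under any of 35 combinations of comparison and setting other than leaving out arrays. Without 1 array the count was 0 to 1 in APP/PS1 vehicle against WT vehicle (1, Tef, without WT vehicle replicate 4). On the slope with Dbp the count was 1 with the choroid plexus covariate. Counted anew over all 45 pairs in each setting, the pairs past the threshold were 11 in the main setting. They were 5 with normexp, 3 within slide 2, 7 without the 2 farthest arrays and 8 to 11 without 1 array. Within groups they were 7 in APP/PS1 UA, 4 in APP/PS1 vehicle and 5 in WT vehicle arrays. These were not always the same pairs. Nr1d1 with Clock (r = -0.88, permutation p = 0.0208), past the threshold within APP/PS1 UA, was not among the 11. In APP/PS1 vehicle against WT vehicle, 1 other clock gene was called with the deposited values, without the filter, with the replicate block and with the choroid plexus covariate, 0 with the mean of all kept probes, with the slide block and within slide 1, and 1 to 2 without 1 array. With normexp 1 was called in APP/PS1 UA against APP/PS1 vehicle.

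Of 374 differences under other settings 33 changed sign, of which none was called. In APP/PS1 UA against APP/PS1 vehicle these were Dbp 0.086 with normexp; Tef -0.0024 with the percentile over detected probes; Tef -0.011 and Arntl -0.0081 with the mean of all kept probes; Per3 0.0058, Dbp 0.30 and Tef -0.026 with the slide block and within slide 2. Those in APP/PS1 UA against WT vehicle were Per3 0.027 and Arntl 0.037 with the mean of probes, Per3 0.39, Cry1 0.093, Nr1d1 0.45, Nr1d2 0.12 and Dbp 0.49 with the slide block, and Dbp 0.020 with the choroid plexus covariate. No slide held both of these groups. In APP/PS1 vehicle against WT vehicle they were Per3 -0.0048 with the deposited values, Per2 0.10, Cry1 -0.12 and Arntl 0.045 with the mean of probes, Nr1d1 0.051 and Dbp 0.19 with the slide block and within slide 1, Dbp 0.016 with sex, and Per3 -0.11 and Dbp 0.041 with the choroid plexus covariate.

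With replicate numbers as a block, which do not pair these samples, APP/PS1 vehicle against WT vehicle gave Per3 -0.040 and Dbp 0.072, and APP/PS1 UA against APP/PS1 vehicle gave Nr1d1 -0.014 and Tef -0.0077. In that fit the slopes were -0.019 for Tef on Dbp, and -0.027 for Per2 and 0.053 for Cry1 on Arntl.

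Slopes on Dbp that changed sign were those of Tef (-0.012 with the percentile over detected probes, -0.024 with quantile normalization, -0.0081 with sex), Per3 (-0.028 with the slide block) and Clock (0.018 with the slide block, 0.024 with the choroid plexus covariate, 0.0017 without group terms). Slopes on Arntl that did so were those of Nr1d2 (0.15 with normexp, 0.12 without group terms), Clock (0.093 with the deposited values, 0.11 with the mean of probes, 0.062 without group terms), Cry1 (0.13 with the mean of probes) and Tef (-0.26 with the mean of probes, -0.013 with the choroid plexus covariate). Correlations that changed sign were Tef with Clock (-0.17, deposited values), Cry1 with Nr1d2 (-0.44) and with Dbp (-0.24) within APP/PS1 UA, Per2 with Per3 (-0.25) and with Nr1d2 (-0.020) at the second Per2 probe, and Cry1 with Nr1d1 (-0.098) and with Dbp (-0.20) at the second Cry1 probe.

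Without 1 array, values that crossed 0 ranged from -0.15 to 0.092 for Dbp, -0.014 to 0.23 for Nr1d1 and -0.016 to 0.031 for Tef in APP/PS1 UA against APP/PS1 vehicle. They ranged from -0.096 to 0.026 for Cry1 and -0.14 to 0.035 for Dbp in APP/PS1 UA against WT vehicle, and from -0.040 to 0.18 for Per3 and -0.15 to 0.072 for Dbp in APP/PS1 vehicle against WT vehicle. Slopes ranged from -0.0020 to 0.42 for Per3, -0.047 to 0.035 for Tef and -0.050 to 0.031 for Clock on Dbp, and -0.10 to 0.12 for Tef on Arntl. Of the 180 slopes on Dbp of its 15 most and least like genes under other settings none changed sign and 76 were no longer called. The cause of these changes was not tested. Dim probes limit the second probes of Per2 and Cry1, which were well above background on 8 and 16 arrays.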
